A study of Mus musculus with 3 samples.

Results

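The genes described are 31 genes of cholesterol handling, found by their symbols among the 32285 genes listed for each library of mouse lung. They comprise 20 enzymes of cholesterol synthesis, 4 genes that regulate the pathway or carry newly made sterol (Srebf2, Scap, Insig1 and Stard4), and 7 genes of efflux, oxysterol formation, storage and lysosomal export (Abca1, Abcg1, Nr1h3, Ch25h, Soat1, Npc1 and Npc2). The series holds 3 single-cell libraries of lung from mice aged 3 months. The library labelled Control and the library labelled Model carry no further label of treatment, and the third is labelled PD00. The series title names PD00 as a peptidomimetic and ovalbumin (OVA) as the inducing agent. The labels do not state which libraries received ovalbumin, nor the strain, dose, route or number of animals, and all 3 are labelled as healthy lung tissue. Each group was 1 library, so no difference between groups could be tested. All intervals are 95% intervals of counting error, and the spread between animals is unknown.

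Cholesterol is made from acetyl units through mevalonate, isoprenoids and squalene, which is closed to lanosterol and then trimmed to cholesterol. When sterol in the endoplasmic reticulum is scarce, SCAP escorts SREBP2, the product of Srebf2, to the Golgi, where it is cut free to switch on the synthesis enzymes; when sterol or side-chain oxysterols are plentiful, INSIG proteins hold the complex back. Excess sterol is handled in the opposite direction. Oxysterols activate the liver X receptors, of which Nr1h3 encodes LXR alpha, and these switch on the transporters ABCA1 and ABCG1 that load cholesterol onto lipoproteins. Alveolar macrophages clear surfactant lipid and are known to depend on ABCG1 for cholesterol export.

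Promoter sequences are shown for 4 synthesis genes and 1 efflux gene whose levels in macrophages are compared in the text. RefSeq windows of 300 bases (250 before and 50 after a start site, GRCm38.p6) were matched for 25 of the 31 members, in 30 windows, and the 250 bases before the start site are printed 5′ to 3′ on the gene's strand. Capitals mark the string TCACNCCAC, a form of the sterol regulatory element, the E-box CACGTG and the CCAAT box. Each was searched on both strands, with no variants of the letters allowed. Hmgcs1, Idi1 and Cyp51 are enzyme genes that were at least 1.5-fold lower in PD00 than in Model, in alveolar and Gpnmb Trem2 macrophages. Ggps1, an enzyme gene of the isoprenoid branch, was not lower in those classes, and Abca1 was higher.
Hmgcs1 (chr13:119690101-119690350, + strand): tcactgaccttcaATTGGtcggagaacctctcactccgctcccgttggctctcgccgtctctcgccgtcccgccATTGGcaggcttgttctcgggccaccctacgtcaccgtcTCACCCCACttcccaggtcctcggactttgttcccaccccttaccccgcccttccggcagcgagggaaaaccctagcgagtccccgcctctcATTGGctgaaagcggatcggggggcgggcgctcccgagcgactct
Idi1 (chr13:8885356-8885605, + strand): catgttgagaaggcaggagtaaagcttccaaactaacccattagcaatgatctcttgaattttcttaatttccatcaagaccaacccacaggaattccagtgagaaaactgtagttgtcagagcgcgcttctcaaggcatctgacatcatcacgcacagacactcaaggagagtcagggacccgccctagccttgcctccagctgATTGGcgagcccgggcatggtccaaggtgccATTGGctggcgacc
Cyp51 (chr5:4104698-4104947, - strand): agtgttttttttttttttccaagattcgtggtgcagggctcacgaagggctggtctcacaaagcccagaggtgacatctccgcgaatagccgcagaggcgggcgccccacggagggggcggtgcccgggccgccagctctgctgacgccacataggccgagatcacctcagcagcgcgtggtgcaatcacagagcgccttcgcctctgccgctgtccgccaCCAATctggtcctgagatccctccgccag
Ggps1 (chr13:14063489-14063738, - strand): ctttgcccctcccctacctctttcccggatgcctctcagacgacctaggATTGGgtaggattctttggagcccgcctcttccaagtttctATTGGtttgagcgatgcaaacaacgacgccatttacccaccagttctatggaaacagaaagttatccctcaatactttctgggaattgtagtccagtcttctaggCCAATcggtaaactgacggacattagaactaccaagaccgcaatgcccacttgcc
Abca1 (chr4:53159896-53160145, - strand): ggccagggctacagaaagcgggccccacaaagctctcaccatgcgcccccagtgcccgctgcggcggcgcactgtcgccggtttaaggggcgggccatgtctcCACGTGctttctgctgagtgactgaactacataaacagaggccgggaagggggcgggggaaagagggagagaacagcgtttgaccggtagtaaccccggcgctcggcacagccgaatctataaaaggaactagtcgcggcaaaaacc

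Hmgcs1 was the only 1 of the 30 member windows with a TCACNCCAC match, which 1.24% of all 32851 windows hold. CCAAT matched in 16 of the 20 windows of synthesis genes (16 of the 17 genes that had one), against 37.4% of all windows. It was present in Ggps1 as well as in Hmgcs1, Idi1 and Cyp51. The GC box GGGCGG matched in 16 of those 20 windows (15 of the 17 genes) and in 35.7% of all windows. CACGTG matched in 7 of the 30 member windows and in 7.15% of all windows. Its 6 member genes were Abca1, Dhcr7, Hsd17b7, Insig1, Sc5d and Scap. The liver X receptor repeat was searched only as 2 exact copies of AGGTCA separated by 4 bases (DR4). This string matched in no member window and in only 5 of all 32851 windows (0.02%), so its lack in the members says little. None of the capitalised matches overlaps another. These matches describe letters in a window and do not show that a factor binds. Only the strings given were searched, so a window without a match is not shown to lack a site.

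The libraries gave 9368, 11285 and 9373 kept cells (Control, Model and PD00 in this order throughout) with 77245146, 79690635 and 76914274 UMIs, the counted RNA molecules. Libraries shared between 31 and 43 cell barcodes in pairs. Cells were assigned to 21 classes by marker lists, and 6.33%, 15.1% and 14.6% of cells met no gate. Macrophages gated on alveolar markers (alveolar macrophages) numbered 2910, 615 and 1156, macrophages with Gpnmb and Trem2 28, 952 and 731, C1q-high interstitial macrophages 190, 720 and 492, and T cells 1693, 2576 and 2097. The alveolar macrophages did not carry their markers alike: the 6 alveolar markers summed to 4244, 2112 and 2550 UMIs per 1000000 UMIs of the class (CPM), and the 4 Gpnmb-class markers to 1450, 11857 and 7905 CPM. By unsupervised clustering, 95.2% of the Control alveolar macrophages fell in cluster 0, whereas 82.0% of those of Model and 90.6% of those of PD00 fell in cluster 4. Values for this class therefore come from macrophages whose markers also differ between libraries, between Model and PD00 as well as from Control. The part of that difference in the ratios was not tested.

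Every one of the 31 members was detected in each library, with between 105 UMIs (Tm7sf2, PD00) and 61002 UMIs (Abcg1, Control) over all kept cells. At the start of the pathway, Acat2, which joins acetyl units, was at 6.36, 6.63 and 4.56 CPM and Hmgcs1, which makes the precursor of mevalonate, at 46.9, 41.5 and 34.2 CPM. The mevalonate kinases Mvk (13.5, 12.5 and 9.39 CPM) and Pmvk (25.7, 22.6 and 17.0 CPM) were lowest in PD00, while the decarboxylase Mvd was at 25.3, 28.4 and 29.0 CPM. Of the isoprenoid enzymes, the isomerase Idi1 was at 28.1, 26.7 and 13.9 CPM and the prenyl synthase Fdps at 22.2, 23.7 and 13.6 CPM. Ggps1, which diverts isoprenoids to protein prenylation, was at 21.0, 18.6 and 18.2 CPM. The squalene enzymes Fdft1 (9.83, 9.32 and 5.64 CPM) and Sqle (11.8, 16.7 and 9.70 CPM) and the cyclase Lss (3.95, 4.57 and 3.00 CPM) were lowest in PD00. In the later steps, Cyp51, the lanosterol demethylase, was at 43.3, 47.9 and 32.2 CPM and Msmo1, which oxidises the next methyl groups, at 25.1, 29.2 and 18.5 CPM. The sterol reductases Tm7sf2 (1.53, 2.25 and 1.37 CPM) and Lbr (41.5, 63.2 and 55.0 CPM) were highest in Model, as were Nsdhl (8.61, 12.7 and 8.68 CPM) and Sc5d (12.9, 22.5 and 19.2 CPM). Hsd17b7 was at 11.9, 9.41 and 7.09 CPM, the isomerase Ebp at 54.3, 53.9 and 42.8 CPM, and Dhcr7, the last reductase, at 11.7, 26.7 and 29.8 CPM.

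Among the regulators over all kept cells, Srebf2 was at 58.0, 61.4 and 50.3 CPM, Scap at 24.6, 24.4 and 24.8 CPM, Insig1 at 45.2, 48.1 and 43.1 CPM, and Stard4, a cytosolic sterol carrier, at 18.1, 18.3 and 14.4 CPM. These sums mix cell classes that make up different shares of the libraries. Alveolar macrophages, for instance, held 92.9%, 47.0% and 69.5% of all Abcg1 UMIs. The comparisons were therefore made within classes.

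The PD00 library was compared with the Model library; with 1 library each, a difference between treatments cannot be told apart from one between libraries or animals. In alveolar macrophages, 15 of the 20 synthesis enzymes were at least 1.5-fold lower in PD00 than in Model and none was that much higher, where 5.39% of the 10719 genes measured in the class (at least 50 UMIs over both libraries) were that much lower. The median log2 ratio of the 20 was -1.20, against 0.04 for all genes. Summed over the 20 enzymes, the level was 449 CPM in Control, 621 CPM in Model and 344 CPM in PD00. The ratios ran from 0.30 to 1.0.

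Idi1, the isomerase of the isoprenoid building block, was at 36.8 CPM in Control, 45.5 CPM in Model and 13.8 CPM in PD00 alveolar macrophages. Its PD00/Model ratio was 0.304 (0.264 to 0.350), from 310 against 559 UMIs. The share of alveolar macrophages with an Idi1 UMI was 25.5%, 34.0% and 16.6%, at median depths of 14764, 19312 and 18469 UMIs per cell, and 3.00%, 3.92% and 1.47% after each cell was thinned to 1000 UMIs. In B cells, with Idi1 at 10.6, 14.4 and 11.2 CPM, the thinned shares were 1.33%, 1.84% and 1.19%, at median depths of 3132, 4343 and 4967 UMIs before thinning. In neutrophils, whose Idi1 level was lower (2.67, 4.68 and 5.66 CPM), they were 0.236%, 0.233% and 0.483%, at median depths of 1945, 1960.5 and 1877.5 UMIs. The thinned share of the PD00 alveolar macrophages was thus near that of B cells and above that of neutrophils.

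Sc5d, which sets a double bond in the sterol ring late in the pathway, was at 8.34, 20.1 and 6.02 CPM, with a PD00/Model ratio of 0.30 (0.241 to 0.371). Sqle, the epoxidase that commits squalene to sterol, was at 14.4, 18.4 and 5.62 CPM, a ratio of 0.306 (0.244 to 0.382). Fdft1, which makes squalene, was at 12.5, 16.5 and 5.80 CPM, a ratio of 0.351 (0.280 to 0.440). These enzymes were highest in Model and lowest in PD00, and Fdps shared that order at 20.9, 28.1 and 10.5 CPM, with a ratio of 0.373 (0.315 to 0.442). The other 10 enzymes past 1.5-fold had ratios between 0.373 (Tm7sf2) and 0.642 (Mvk), among them Cyp51 at 54.7, 67.9 and 29.4 CPM and Hmgcs1 at 57.9, 66.2 and 42.2 CPM. Their intervals lay below 1 in each case.

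The 5 enzymes within 1.5-fold lay at different steps. Ggps1 was at 15.0, 12.3 and 12.3 CPM, with a PD00/Model ratio of 1.0 (0.819 to 1.23). Dhcr7, the last reductase, was at 15.8, 41.1 and 35.2 CPM, a ratio of 0.855 (0.764 to 0.958), so that its PD00 level stayed near that of Model. The isomerase Ebp (0.761), the decarboxylase Mvd (0.740) and Lbr (0.722), an inner nuclear membrane protein that is also a sterol reductase, were between.

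The regulators differed among themselves in the same cells. Srebf2 was at 58.5, 44.4 and 25.2 CPM, with a PD00/Model ratio of 0.568 (0.504 to 0.641), and it was lower in Model than in Control as well (0.758, 0.690 to 0.832). Stard4 was at 17.1, 19.2 and 8.30 CPM, a ratio of 0.432 (0.355 to 0.526). Insig1, itself a target of SREBP2, was at 59.4, 79.8 and 54.8 CPM, a ratio of 0.688 (0.632 to 0.748) that did not pass 1.5-fold. Scap was level at 31.5, 30.4 and 32.0 CPM.

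**Figure D1:**
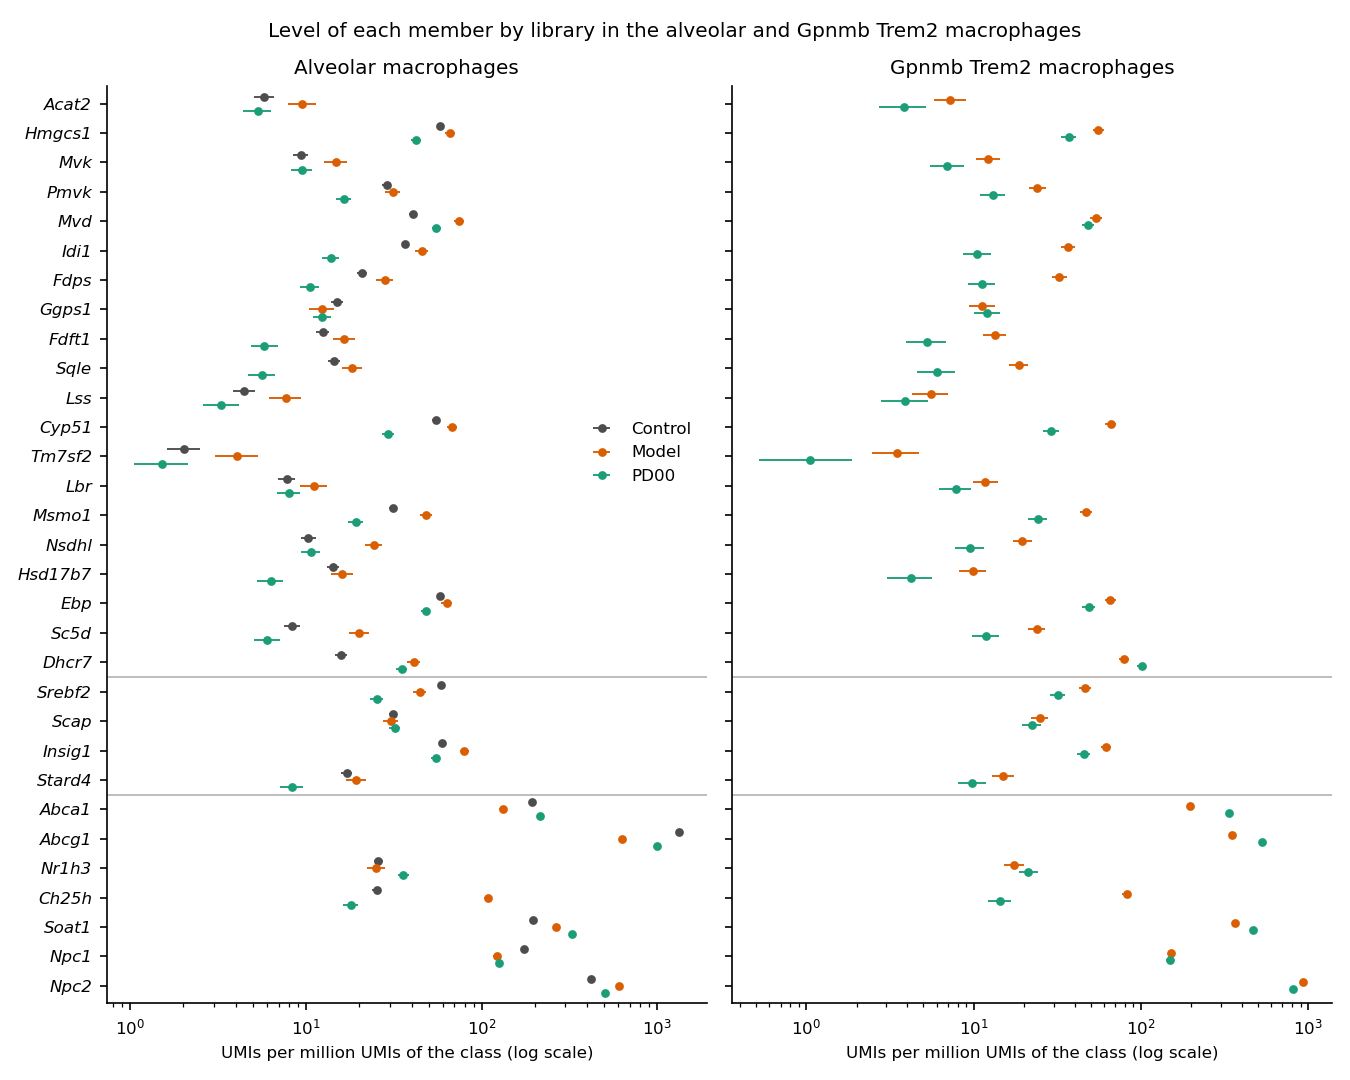
Level of each of the 31 members (rows; synthesis, regulators and efflux separated by lines) in alveolar macrophages of the 3 libraries and in Gpnmb Trem2 macrophages of Model and PD00, as CPM on a log axis; points are single libraries and bars are 95% Poisson intervals of the UMI sum. Most synthesis enzymes of PD00 lie to the left of Model, Ggps1 does not, and Abca1 and Abcg1 lie to the right.

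Gpnmb Trem2 macrophages gave the same count, from other cells of the same libraries and so not as separate support. There, 15 of 20 enzymes were at least 1.5-fold lower in PD00 than in Model and none was that much higher, beside 5.14% of 9995 genes, with a median log2 ratio of -0.95 against 0.02 for all genes. Idi1 levels were 36.8 (Model) and 10.5 CPM (PD00), a ratio of 0.285 (0.229 to 0.352). Fdps was at 32.4 and 11.2 CPM (0.347, 0.280 to 0.428) and Sqle at 18.6 and 6.0 CPM (0.323, 0.24 to 0.429). Cyp51, at 65.8 and 29.0 CPM, had a ratio of 0.441 (0.385 to 0.504), and Fdft1, at 13.4 and 5.24 CPM, 0.391 (0.282 to 0.535).

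Among the enzymes within 1.5-fold, Ggps1 and Dhcr7 again had the highest ratios. Ggps1 was at 11.2 and 12 CPM (1.07, 0.829 to 1.38). Dhcr7 was higher in PD00, at 79.3 and 101 CPM (1.27, 1.17 to 1.39). Mvd (0.90, 0.798 to 1.01), Ebp (0.743) and Lss (0.706, 0.465 to 1.06) were the other enzymes within 1.5-fold. Stard4 was at 14.9 and 9.81 CPM, a ratio of 0.656 (0.509 to 0.842), and Srebf2, Insig1 and Scap had ratios of 0.685, 0.737 and 0.895. The 28 Control cells of this class were too few to compare.

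Cell-cycle genes, a list of 12, differed in the same direction in these macrophages: 6 of the 12 measured were at least 1.5-fold lower in PD00 than in Model in alveolar macrophages (median log2 ratio -0.60), and 6 of the 9 measured in Gpnmb Trem2 macrophages (-1.29), beside the 5.39% and 5.14% of all genes that were lower. Cells with UMIs of at least 3 cycle genes were 13% of the alveolar macrophages of Model and 11.5% of those of PD00, and 4.41% and 1.92% of the Gpnmb Trem2 macrophages. With these cells left out, an alternative added after the data were seen, 15 of 20 enzymes remained lower in alveolar and 14 of 20 in Gpnmb Trem2 macrophages. A cluster of shallow cells, cluster 7, held 30.9% of the Gpnmb Trem2 macrophages of Model and 8.76% of those of PD00; without it the counts were 15 of 20 and 13 of 19.

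Few or no measured enzymes passed 1.5-fold in C1q-high interstitial macrophages and T cells. In C1q-high macrophages 1 of 17 measured enzymes, Idi1, was at least 1.5-fold lower in PD00 than in Model, beside 3.57% of all genes lower and 2.46% higher. It was at 7.79, 17.6 and 11.1 CPM, with a PD00/Model ratio of 0.629 (0.442 to 0.884). The 17 ratios ran from 0.629 to 1.12 with a median log2 of -0.37, against 0.03 for all genes. Their median thus lay in the same direction as in the other macrophage classes, mostly short of 1.5-fold. In T cells none of 19 measured enzymes passed 1.5-fold in either direction, where 2.90% of all genes were lower and 3.72% higher, and the ratios ran from 0.726 (Lss) to 1.31 (Sc5d). Higher genes were 40.8% of all genes past 1.5-fold in C1q-high macrophages and 56.2% in T cells, and 28.8% and 39.1% with scaling by the median of ratios. Whether the classes differ could not be tested with 1 library per group.

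**Figure D2:**
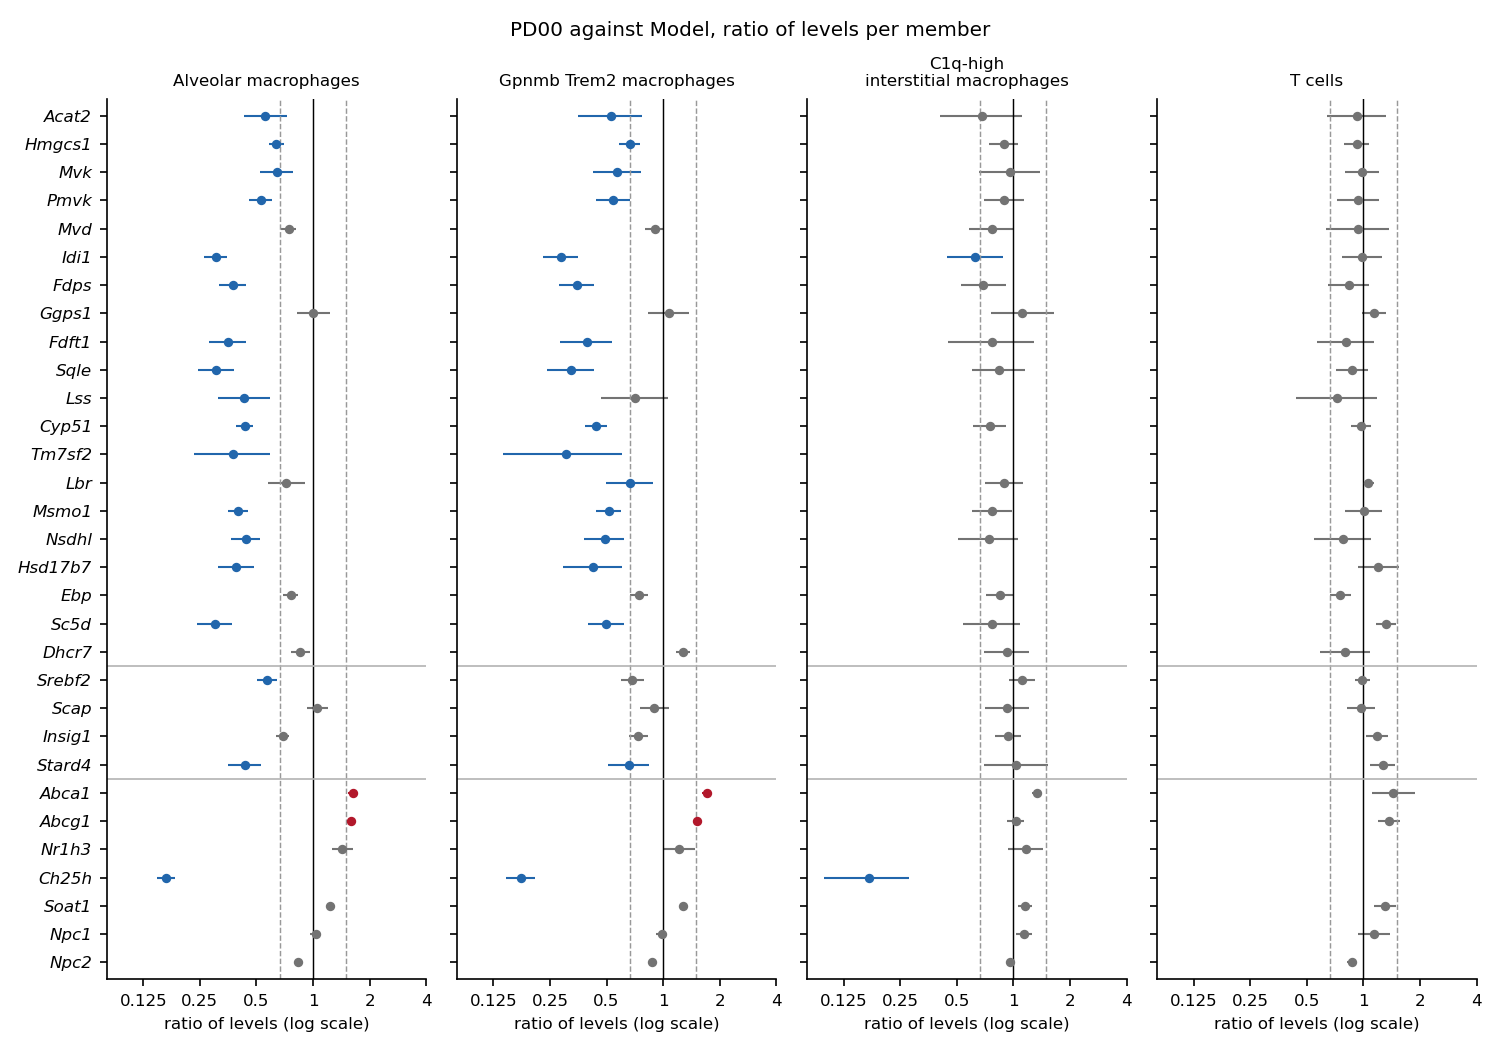
PD00/Model ratio of levels for each member with at least 50 UMIs over both libraries, in 4 cell classes, on a log axis; bars are 95% counting intervals, dashed lines mark 1.5-fold, and blue and red points lie past it. In alveolar and Gpnmb Trem2 macrophages 15 of 20 synthesis enzymes are blue, in C1q-high macrophages 1 of 17, in T cells 0 of 19.

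Endothelial and epithelial cells held fewer UMIs of these genes. In endothelial cells 8 of 16 measured enzymes were at least 1.5-fold lower in PD00, beside 6.09% of all genes, among them Idi1 (25.1, 24.4 and 11.7 CPM; PD00/Model ratio 0.478, 0.308 to 0.725) and Fdps (32.3, 26.1 and 13.5 CPM; 0.517, 0.343 to 0.765). Cyp51 was at 11.5, 16.5 and 7.67 CPM (0.465, 0.268 to 0.778). This count rests on few UMIs: it was 3 of 11 without cluster 7 and 5 of 13 with a stricter gate. Among all genes past 1.5-fold in endothelial cells, 43.6% were higher, and 33.4% with the median of ratios. That scaling left 8 of 16 enzymes lower, beside 7.4% of all genes. In epithelial cells 8 of 12 enzymes were lower, but so were 29.2% of all genes in a class of only 145 and 105 cells, and the all-gene median log2 ratio was -0.33. With scaling by the median of ratios, higher genes made up 38.6% rather than 13.8% of all genes past 1.5-fold in that class. Then 7 of 12 enzymes were lower, beside 14.8% of all genes. Cells with a UMI of Lamp3, a marker of alveolar type II cells, were 4.83% of this class in Model and 30.5% in PD00. The part of this makeup in the ratios was not tested. Fibroblasts had 0 of 11 enzymes lower, beside 8.89% of all genes, and neutrophils 0 of 8, beside 4.81%.

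**Figure D3:**
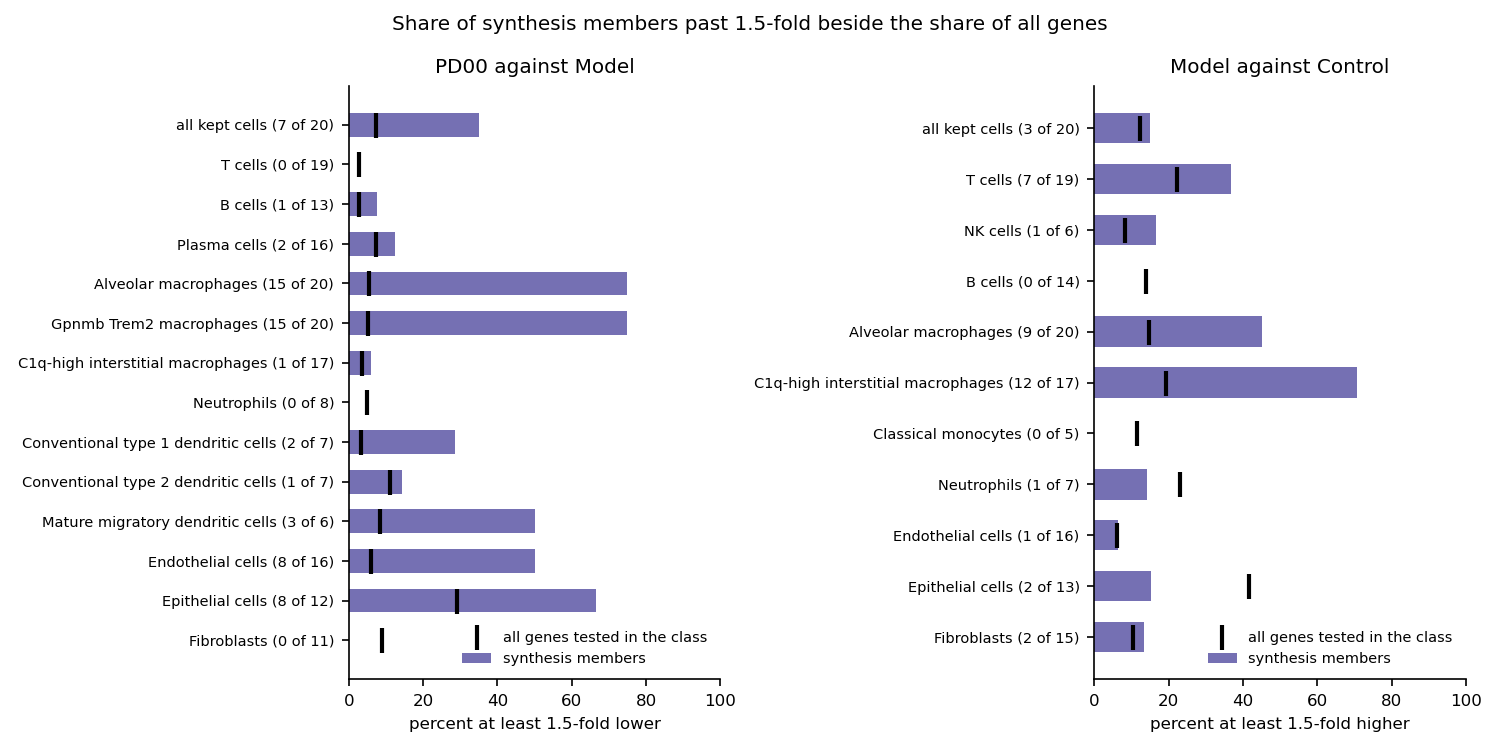
Percent of the measured synthesis enzymes (bars; counts in brackets) that were at least 1.5-fold lower in PD00 than in Model (left) or higher in Model than in Control (right), per class with at least 5 measured enzymes, and the same percent over all genes measured in the class (black ticks). The bars stand farthest above the ticks in alveolar and Gpnmb Trem2 macrophages on the left and in C1q-high macrophages on the right.

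The comparison of Model with Control asks how the model condition changed the lung. It shares the Model library with the comparison above, so its values are set beside them and not counted as separate support. In alveolar macrophages 9 of 20 were at least 1.5-fold higher and none lower, beside 14.7% of 11275 genes higher and 24.3% lower, with a median log2 ratio of 0.47 against -0.18. Scaling by the median of ratios moved the all-gene median to 0.00 and the share of higher genes among all past 1.5-fold from 37.7% to 54.9%. With it, 12 of 20 enzymes were higher, beside 19.7% of all genes.

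Those 9 were led by enzymes of the last steps. Dhcr7, at 15.8 CPM in Control and 41.1 CPM in Model, had a ratio of 2.60 (2.31 to 2.92). Sc5d, at 8.34 and 20.1 CPM, had 2.41 (2.04 to 2.84). Nsdhl, a demethylating dehydrogenase, at 10.3 and 24.3 CPM, had 2.35 (2.02 to 2.73). Mvd (1.84, 1.69 to 1.99) and Msmo1 (1.55, 1.40 to 1.70) followed, and Hmgcs1 (1.14), Idi1 (1.24) and Cyp51 (1.24) were within 1.5-fold. Ratios over the 20 ran from 0.819 (Ggps1) to 2.60.

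In C1q-high interstitial macrophages 12 of 17 measured enzymes were at least 1.5-fold higher in Model, and none lower, beside 19.4% of all genes higher and 15.3% lower, and the median log2 ratio was 0.81 against 0.03. Control counts were small there, and enzymes were counted by their ratio alone. Intervals of some of the 12 included 1, such as those of Fdft1 (1.59, 0.634 to 5.14), Mvk (1.64, 0.788 to 3.93) and Sqle (1.75, 0.941 to 3.61). Hmgcs1 was at 13.9 CPM from 16 UMIs in Control, 48.7 CPM in Model and 43.2 CPM in PD00, a Model/Control ratio of 3.51 (2.13 to 6.22). Mvd was at 5.19 CPM from 6 UMIs, 23.9 CPM and 18.4 CPM (4.60, 2.06 to 12.7). Cyp51 (20.8, 43.8 and 32.8 CPM) had a ratio of 2.11 (1.39 to 3.34) and Msmo1 (13, 30.3 and 23.5 CPM) of 2.33 (1.38 to 4.25). Idi1, the next by its interval, had 2.26 (1.15 to 5.06). Of the regulators, Scap (1.77, 1.04 to 3.24) and Insig1 (1.68, 1.22 to 2.36) were past 1.5-fold and Srebf2 was level (1.06). For all genes of this class, scaling by the median of ratios raised the share at least 1.5-fold higher from 19.4% to 23.8%. It raised the share of higher genes among those past 1.5-fold from 56.0% to 66.8%. The makeup of the class differed as well. Cluster 10 held 92.6% of its Control cells and 70.1% of its Model cells, and cluster 7 held 13.5% of those of Model. Its 6 markers summed to 13219 CPM in Control and 9692 CPM in Model. The part of this in the ratios was not tested.

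In T cells 7 of 19 enzymes were at least 1.5-fold higher and 1 lower in Model than in Control, beside 22.2% of all genes higher and 8.15% lower. Sqle was at 5.64, 21.0 and 18.3 CPM, a Model/Control ratio of 3.73 (2.70 to 5.25), and Sc5d at 15.0, 41.0 and 53.9 CPM, a ratio of 2.74 (2.24 to 3.37). Mvk was the lower one, at 35.0, 16.6 and 16.3 CPM (0.473, 0.394 to 0.568). Fdft1 (2.25, 1.42 to 3.70) and Lss (2.95, 1.47 to 6.52, from 10 Control UMIs) followed. Scap was at 12.9, 24.7 and 23.9 CPM (1.91, 1.52 to 2.41). Cluster 8 held 72.2% of the Control T cells, while clusters 6 and 5 held 28.6% and 27.7% of those of Model, and 9 of 12 cycle genes were higher in Model. The all-gene split depended on scaling: higher genes were 73.2% of all past 1.5-fold, 58.5% with the median of ratios and 42.7% with mitochondrial, ribosomal protein and haemoglobin genes left out of the total, which moved the all-gene median log2 from 0.17 to -0.09. Under those scalings 5 of 19 enzymes were higher. The share of all genes higher was 16.1% with the median of ratios and 11.9% with those genes left out of the total.

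**Figure D4:**
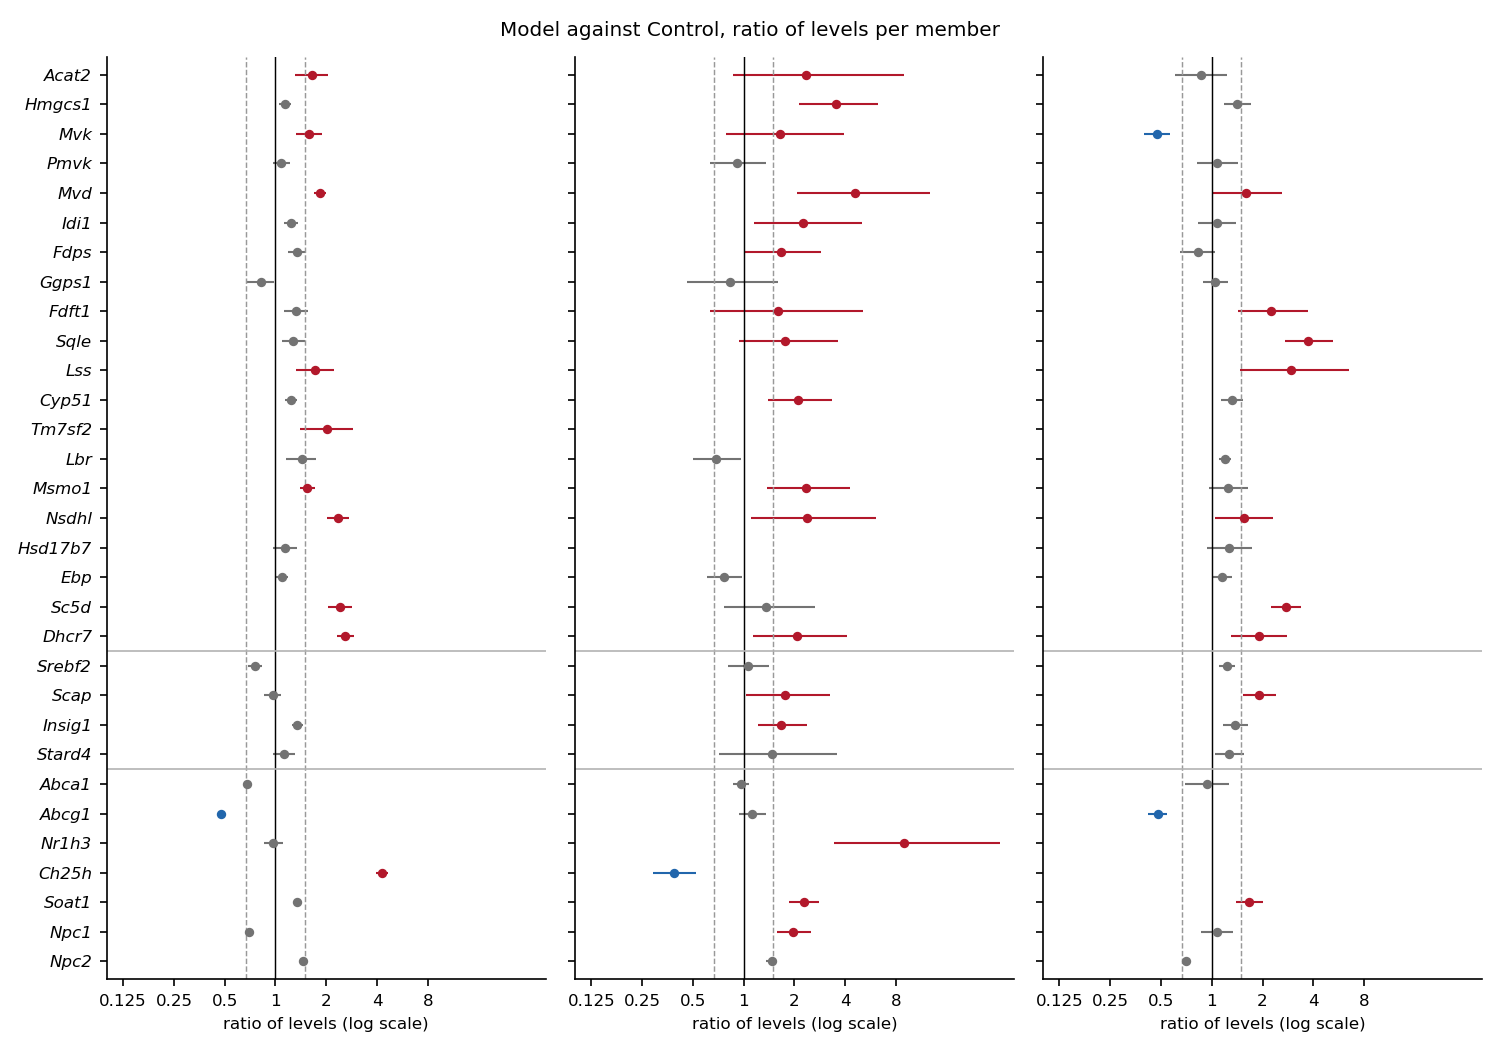
Model/Control ratio of levels for each member with at least 50 UMIs over both libraries, in 3 cell classes, on a log axis; bars are 95% counting intervals, dashed lines mark 1.5-fold, and red and blue points lie past it. Synthesis enzymes lie mostly to the right of 1, with 9 of 20 red in alveolar and 12 of 17 in C1q-high macrophages; Mvk in T cells is blue.

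Set beside Control, the PD00 alveolar macrophages had 8 of 20 enzymes at least 1.5-fold lower and 1 higher, where 20.1% of all genes were lower and 13.1% higher. The median log2 ratio was -0.44 against -0.15. Idi1 had a PD00/Control ratio of 0.376 (0.332 to 0.425) and Sqle 0.390 (0.319 to 0.473), whereas Nsdhl, at 1.03 (0.874 to 1.21), was near its Control level. Dhcr7 was the higher enzyme, at 2.22 (2.0 to 2.46). With the median of ratios, higher genes were 55.3% rather than 39.5% of all past 1.5-fold in this comparison. Then 7 of 20 enzymes were lower, beside 14% of all genes.

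Efflux and oxysterol genes were described in each macrophage class. Abca1, the transporter that loads lipid-poor apolipoprotein, was at 193 CPM in Control, 132 CPM in Model and 215 CPM in PD00 alveolar macrophages. The PD00/Model ratio was 1.63 (1.54 to 1.72) and the Model/Control ratio 0.682 (0.647 to 0.720). In Gpnmb Trem2 macrophages the levels were 197 (Model) and 335 CPM (PD00), a ratio of 1.70 (1.61 to 1.79). In C1q-high macrophages, the class with the highest Abca1 level in every library, it was at 333, 321 and 431 CPM, and the PD00/Model ratio of 1.34 (1.26 to 1.43) was within 1.5-fold. Model was thus below PD00 in each of these classes, and below Control beyond the counting interval in the alveolar class only (C1q-high Model/Control ratio 0.963, 0.864 to 1.08).

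Abcg1, which passes cholesterol to mature lipoprotein particles, was at 1327, 633 and 1002 CPM in alveolar macrophages. The Model/Control ratio was 0.477 (0.465 to 0.488) and the PD00/Model ratio 1.58 (1.54 to 1.63). This class had the highest Abcg1 level in each library, and in Control the next class, nonclassical monocytes, was at 159 CPM. In Gpnmb Trem2 macrophages the levels were 349 (Model) and 525 CPM (PD00), a ratio of 1.504 (1.44 to 1.57) that was under 1.5 with the median of ratios, doublets kept, thinning, the stricter gate or cluster 7 left out. In C1q-high macrophages it was level, at 115, 129 and 133 CPM.

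With 2 of 7 efflux, oxysterol and storage genes higher in PD00 than in Model, alveolar macrophages stood beside 2.88% of all genes in the class and Gpnmb Trem2 macrophages beside 2.29%. Nr1h3, the liver X receptor gene, was at 25.8, 25.1 and 35.9 CPM in alveolar macrophages, a PD00/Model ratio of 1.43 (1.25 to 1.64). In Gpnmb Trem2 macrophages the levels were 17.5 (Model) and 21.2 CPM (PD00), a ratio of 1.22. In C1q-high macrophages it was at 3.46 CPM in Control from 4 UMIs, 30.8 CPM in Model and 35.9 CPM in PD00, a Model/Control ratio of 8.88 (3.42 to 32.9). Endothelial cells went the other way, at 26.1, 10.2 and 7.67 CPM (0.391, 0.263 to 0.570).

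Ch25h, which makes a side-chain oxysterol that holds SREBP2 back, had the lowest PD00/Model ratio of the measured members in each of the 3 macrophage classes. In alveolar macrophages it was at 25.2 CPM in Control, 108 CPM in Model and 17.9 CPM in PD00, from 1078, 1333 and 402 UMIs. The Model/Control ratio was 4.30 (3.96 to 4.66) and the PD00/Model ratio 0.165 (0.148 to 0.185). Cells with a Ch25h UMI made up 16.2%, 44.7% and 16.0% of the class, and 2.59%, 8.97% and 2.17% after thinning to 1000 UMIs, where B cells had 0.24%, 1.36% and 0.29% before thinning. No single cell held more than 52 of the UMIs of the class in a library. The Model library was thus high and the other libraries low in this class.

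Gpnmb Trem2 macrophages had 81.8 CPM of Ch25h in Model and 14.3 CPM in PD00, a ratio of 0.175 (0.146 to 0.208). C1q-high macrophages had another order, 60.6 CPM in Control, 23.4 CPM in Model and 3.99 CPM in PD00. There the Model/Control ratio was 0.386 (0.289 to 0.520) and the PD00/Model ratio 0.170 (0.0983 to 0.278), from 18 PD00 UMIs. In endothelial cells Ch25h was at 5.15, 23.6 and 15.7 CPM, with a Model/Control ratio of 4.58 (2.92 to 7.42). All 5 classes with at least 50 Ch25h UMIs over both libraries were at least 1.5-fold lower in PD00 than in Model; in endothelial cells (0.666, 0.45 to 0.974) and fibroblasts the ratio lay near that limit.

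Soat1, which esterifies cholesterol for storage, was at 197, 266 and 325 CPM in alveolar macrophages, with Control lowest and PD00 highest. Its PD00/Model ratio was 1.22 (1.17 to 1.28) there and 1.27 (1.22 to 1.33) in Gpnmb Trem2 macrophages, where the level was 366 and 466 CPM. In C1q-high macrophages it was at 85.7, 194 and 224 CPM, a Model/Control ratio of 2.27 (1.85 to 2.81). In endothelial cells Model was highest, at 14.8, 36.4 and 16.1 CPM.

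Npc1 and Npc2 pass cholesterol out of the lysosome. Npc1 was at 174, 122 and 125 CPM in alveolar macrophages, and its PD00/Model ratio was near 1 there (1.03, 0.968 to 1.10), in Gpnmb Trem2 macrophages (0.983, 0.917 to 1.05) and in C1q-high macrophages (1.14, 1.03 to 1.26). In C1q-high macrophages it was at 71.0, 140 and 159 CPM, a Model/Control ratio of 1.97 (1.57 to 2.50). Npc2 was at 418, 607 and 507 CPM in alveolar, 933 and 812 CPM in Gpnmb Trem2 (Model and PD00) and 655, 960 and 927 CPM in C1q-high macrophages.

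In epithelial cells Npc2 was at 1107, 579 and 1427 CPM, a Model/Control ratio of 0.523 (0.484 to 0.565) and a PD00/Model ratio of 2.46 (2.29 to 2.66). The makeup of this class differed between libraries. Cells with a UMI of Lamp3, a marker of alveolar type II cells, were 33 of 127 in Control, 7 of 145 in Model and 32 of 105 in PD00. Cells with a Lamp3 UMI had 2798, 1840 and 2595 CPM of Npc2, and cells without had 732, 428 and 952 CPM. Model was lowest in each subset, by less among cells with a Lamp3 UMI, of which Model had only 7. Cells with a UMI of Sftpb, another marker of the class, were 72.4%, 11.7% and 57.1% of it. The cells without a Lamp3 UMI thus differed in makeup as well, and this split does not hold the makeup fixed. The part of the makeup in the class ratio was not tested further.

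**Figure D5:**
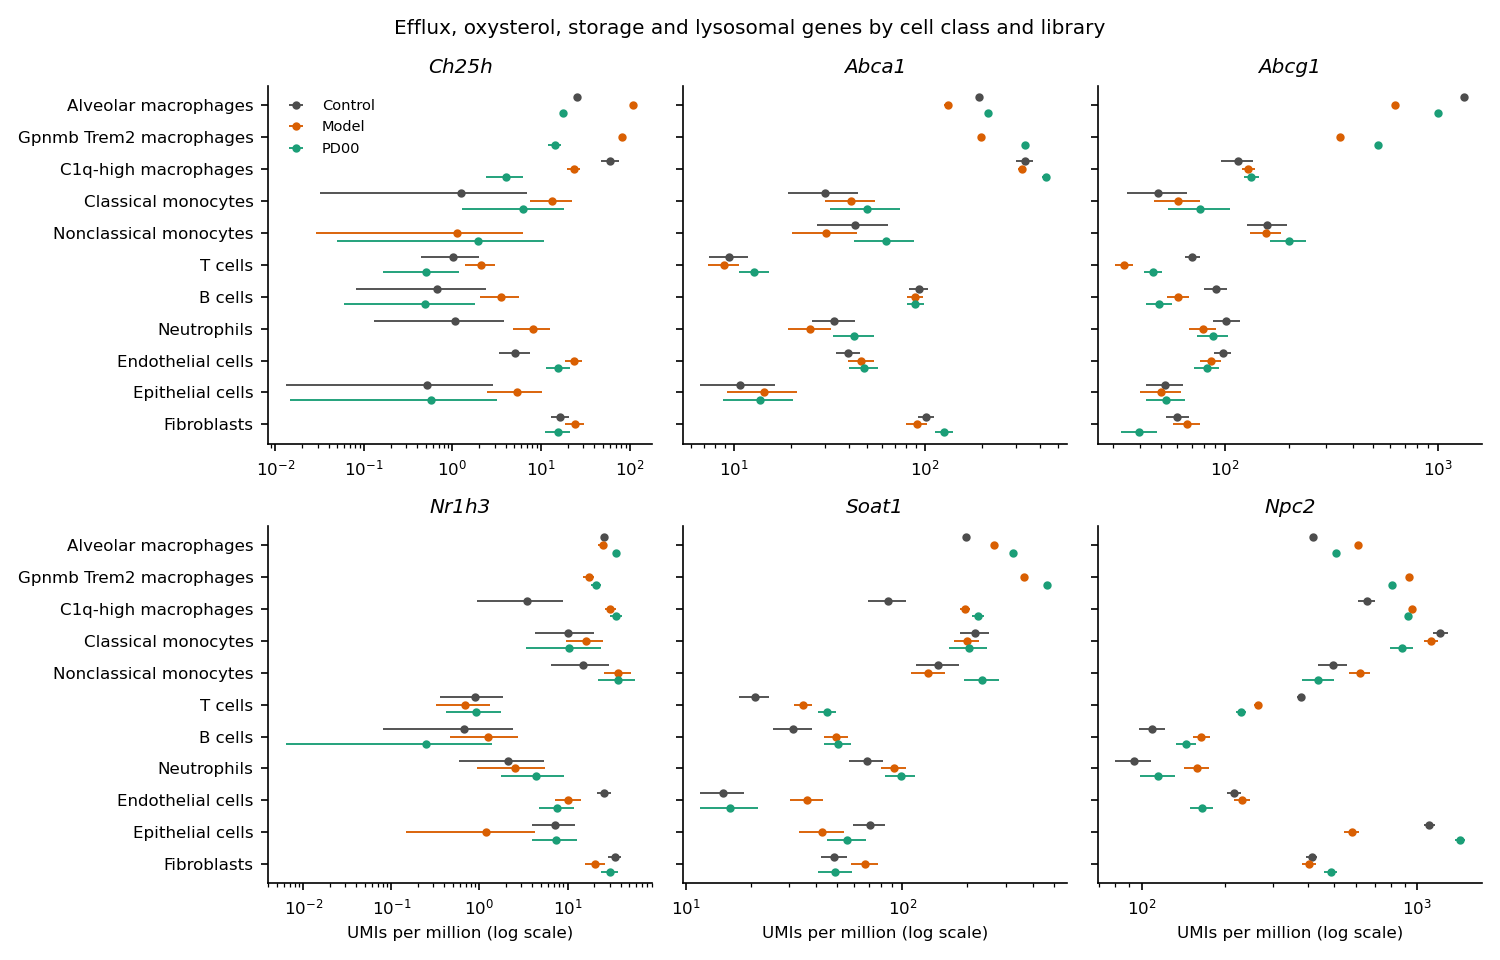
Level of 6 efflux, oxysterol, storage and lysosomal genes (panels) in 11 cell classes by library, as CPM on log axes that differ between panels; points are single libraries with at least 50 cells and at least 1 UMI of the gene, bars 95% Poisson intervals. Ch25h of Model stands to the right of the other libraries in alveolar macrophages, and Abcg1 is highest in alveolar macrophages in every library.

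Other genes of sterol handling, a list of 27, did not share the lower levels of the synthesis enzymes. In alveolar macrophages 2 of 23 measured were at least 1.5-fold higher in PD00 than in Model and none lower, beside 2.88% of all genes higher. Both are known targets of the liver X receptors: Pltp, the phospholipid transfer protein, at 204 CPM in Model and 342 CPM in PD00 (1.68, 1.60 to 1.75), and Mylip, a ubiquitin ligase of lipoprotein receptors, at 17.9 and 32.5 CPM (1.82, 1.56 to 2.12). Mylip was at 55.6 CPM in Control, so that its Model/Control ratio was 0.322 (0.279 to 0.370). In Gpnmb Trem2 macrophages 1 of 23 was higher, again Mylip (1.67, 1.34 to 2.08), a share near the 2.29% of all genes.

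Of 10 genes of fatty acid synthesis, the branch driven by SREBP1, 3 of 8 measured were at least 1.5-fold lower in PD00 than in Model in alveolar macrophages and 4 of 7 in Gpnmb Trem2 macrophages, with none higher, beside the 5.39% and 5.14% of all genes that were lower there. Scd2, a fatty acid desaturase, was at 128 and 74.7 CPM in alveolar macrophages (0.582, 0.543 to 0.624). In epithelial cells 4 of 8 were higher and none lower, beside 4.68% of all genes higher and 29.2% lower in this class of few cells, whose split depended on scaling. Its makeup differed too, with a Lamp3 UMI in 4.83% of the Model and 30.5% of the PD00 cells. The part of this in the epithelial ratios was not tested. Against Control, 8 of 23 other sterol genes were lower and 2 higher in Model alveolar macrophages, and 4 of 8 fatty acid genes were higher and 1 lower, where 24.3% of all genes were lower and 14.7% higher. Scd1 was at 21.4 CPM in Control and 70.8 CPM in Model (3.31, 3.02 to 3.64), and Gramd1b, a sterol transfer protein, at 25.9 and 6.51 CPM (0.251, 0.198 to 0.316).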

How the data were processed

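Single-cell RNA was measured with a droplet 3' kit in 3 libraries of mouse lung (Control, Model and PD00), 1 per group. The deposited matrices hold UMI counts per gene and barcode, whole numbers not normalised by the authors, for 10133, 11772 and 9851 barcodes. Per the submitters' processing notes, Cell Ranger 3.1.0 and STAR were used with mm10, whereas the matrix headers name Cell Ranger 5.0.0. Barcodes with at least 500 UMIs, 200 genes, at most 20% mitochondrial UMIs and a Scrublet doublet score (scanpy 1.11.5) under 0.2 were kept; the doublet score was set after the data were seen.

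Each cell was gated by mean standardised log levels of marker lists: a score of at least 0.5, a lead of at least 0.25 over the next list and at least 2 markers detected. Alveolar and Gpnmb lists competed as 1, and cells with at least 3 of 6 alveolar markers and a score of at least 0.3 were called alveolar. Gate thresholds were set with the data in view. UMIs were summed per library and class and scaled to 1000000 UMIs of the class (CPM); ratios have exact conditional binomial (Clopper-Pearson) 95% intervals, levels exact Poisson and shares exact binomial intervals, which cover counting error only. Classes needed at least 50 cells in both libraries and genes at least 50 UMIs over both sums. The calculation of the ratios was checked on simulated Poisson counts of known ratio, which held no spread between cells, libraries or animals. No test was made, since cells are not replicates; doses, strains and animals per library are not given in the sources used here. Free RNA was not corrected.

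The members and lists were chosen with earlier results of these data known. Named genes are the members: in each described class up to 5 synthesis and 5 efflux members ranked by the interval end nearest to 1, and all efflux and oxysterol members in macrophages; other pathway genes are given as counts with at most 4 examples by the same ranking. Gene positions and promoters are those of GRCm38. Alternatives were other scalings, cell filters, minimum sums, a fold of 2, thinning, classes from Leiden clusters and a stricter gate.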

Additional observations from a re-analysis of the deposited data

Results flagged for a closer look

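In 9 cases a gene lay past 1.5-fold in opposite directions in different cell classes of the same comparison of 2 libraries, with at least 100 UMIs over both sums in each class and intervals clear of 1.2-fold. For each case only the class whose interval lay farthest from 1 in each direction is given, and further classes met the same limits for some of these genes. None of these differences between classes was tested, since each group was 1 library. Between PD00 and Model, Abcg1 had ratios of 1.58 in alveolar macrophages and 0.599 in fibroblasts, Sc5d of 0.30 in alveolar macrophages and 1.68 in fibroblasts, and Soat1 of 1.76 in nonclassical monocytes and 0.442 in endothelial cells. Between Model and Control, Ch25h had ratios of 4.30 in alveolar and 0.386 in C1q-high macrophages, Mvk of 1.58 in alveolar macrophages and 0.473 in T cells, and Sc5d of 2.74 in T cells and 0.578 in fibroblasts. Npc2 had 1.69 in neutrophils and 0.523 in epithelial cells, Nr1h3 8.88 in C1q-high macrophages (4 Control UMIs) and 0.391 in endothelial cells, and Soat1 2.27 in C1q-high macrophages and 0.602 in epithelial cells.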

How the results depend on the processing

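No paired analysis was possible because each group is 1 library and no test was made; for the same reason no library could be left out. Across the 143 named ratios, 1223 of 1332 values under the alternatives lay within the counting interval of the reported value, 108 lay outside it and 1 changed direction: Msmo1 in alveolar macrophages, Model against Control, was 0.581 (0.308 to 1.01) with cells thinned to 1000 UMIs. Thinning gave a value for 61 of the 143 ratios, of which 19 stayed within the interval and 41 lay outside it. The counts of enzymes lower in PD00 than in Model moved by over 1.5 times as follows. Thinning gave 3 of 5 in alveolar macrophages, 2 of 6 in Gpnmb Trem2 macrophages, 0 of 1 in endothelial cells and 2 of 18 over all kept cells, where 7 of 20 were lower beside 7.29% of all genes. A fold of 2 gave 9 of 20 in Gpnmb Trem2 macrophages, 3 of 16 in endothelial cells, 5 of 12 in epithelial cells and 0 of 20 over all kept cells. At least 200 UMIs left 0 of 4 in endothelial and 0 of 1 in epithelial cells, and at least 1 UMI gave 14 of 20 in epithelial cells. In endothelial cells a stricter gate gave 5 of 13 and leaving out cluster 7 gave 3 of 11. For Model against Control, a fold of 2 gave 4 of 20 higher in alveolar macrophages and 4 of 19 in T cells, thinning 1 of 12, 3 of 9 and, in C1q-high macrophages, 0 of 1, and at least 200 UMIs 3 of 6 in C1q-high macrophages and 2 of 13 in T cells. For PD00 against Control in alveolar macrophages, a fold of 2 gave 4 of 20. Efflux genes higher in PD00 than in Model were 0 of 7 at a fold of 2 in alveolar and in Gpnmb Trem2 macrophages; in the latter, 1 of 7 remained with the median of ratios, with doublets kept, with the stricter gate and without cluster 7, and 1 of 6 with thinning, Abcg1 lying at 1.504. Fewer UMIs reach the minimum after thinning, which limits its counts; other causes were not tested.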

Other observations

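Some members were at their highest level outside the macrophages. Mature migratory dendritic cells had 185 CPM of Idi1 in Model and 185 CPM in PD00, a PD00/Model ratio of 0.999 (0.776 to 1.28). The next class differed by library: eosinophils in Model (48.2 CPM, 20 UMIs) and conventional type 2 dendritic cells in PD00 (26.7 CPM, 15 UMIs). In the mature migratory dendritic cells Fdps was at 59.0 and 32.0 CPM, with a ratio of 0.542 (0.302 to 0.935) from 50 and 19 UMIs. Abca1 was at 51.9 and 11.8 CPM there, with a ratio of 0.227 (0.0862 to 0.508) from 44 and 7 UMIs. Idi1 was thus level there while it was lower in PD00 in alveolar macrophages; the difference between the classes was not tested. These were 81 and 63 cells.

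Lbr was highest in neutrophils and NK cells, at 175, 244 and 288 CPM in neutrophils of Control, Model and PD00, with a PD00/Model ratio of 1.18 (1.04 to 1.34). Stard4 was highest in endothelial cells in each library, at 51.1, 72.1 and 52.6 CPM. Srebf2 was highest in conventional type 1 dendritic cells, at 134, 135 and 140 CPM, and nearly level across libraries. Sc5d was highest in ILC2 of Model and PD00, at 66.9 and 69.7 CPM against 33.1 CPM in Control, a Model/Control ratio of 2.02 (1.17 to 3.54). In fibroblasts Sc5d was at 55.0, 31.8 and 53.3 CPM, lowest in Model.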
